A study of Mus musculus with 36 samples.

Results

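The genes Zfp900 to Zfp999 of the mouse are a numbered block of zinc finger genes, many of which lie in clusters. Their chromatin was examined by ATAC-seq, where sites that a transposase can reach are cut and sequenced, in CD4 T cells without HP1α, without HP1γ or with both proteins (WT). Members were protein-coding genes of GENCODE vM39 whose symbol is Zfp9 and 2 more digits, and a peak was a member when its midpoint was nearest to the transcription start site (TSS) of such a gene or lay in its body. This gave 144 of the 71509 peaks. Each was given to 1 gene, 50 of the 66 genes in all, and of the other 16, Zfp942 shared the promoter peak given to its neighbour Zfp943 and 15 had no peak. The lowest symbol among the genes was Zfp930. A promoter peak held a TSS or lay within 500 bp of one, which was the case for 38 peaks at 38 genes, with 2 peaks at Zfp974 and 1 peak for both Zfp942 and Zfp943. The gene body held 30 peaks, and 76 peaks flanked a gene outside its body. Midpoints lay outside the gene for 88 peaks, in introns for 34, in noncoding exon sequence for 20 and in coding exons for 2.

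Zinc finger proteins with a KRAB domain bind DNA, often within transposable elements, and recruit the corepressor TRIM28 and the methyltransferase SETDB1, which places H3K9me3 on histone H3. HP1 proteins bind this mark. Clusters of zinc finger genes carry H3K9me3 themselves, mostly over their last exons, while their promoters are often open. HP1α is encoded by Cbx5 and HP1γ by Cbx3.

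The 36 libraries formed 12 groups of 3, all from spleen CD4 T cells of sex-matched littermates of 6 to 12 weeks on a mixed background. HP1α knockout (KO) mice were Hp1a-/- in every tissue, after deletion by CMV-cre, and their WT were Hp1a+/+. HP1γ KO mice carried a floxed allele deleted by Cd4-cre, thus in T cells and not in the whole animal, and their WT were floxed littermates. Naive cells were profiled when isolated. Conventional T cells (Tconv) had been transferred as naive cells, without or with regulatory T cells (Treg), into lethally irradiated hosts (C57BL/6 J or CD45.1+ B6) given bone marrow of C57BL/6 J and B6D2F1 mice, and Vβ6+ cells were sorted 3 weeks later. The labels do not say whether replicates came from separate mice, so that the p-values measure the spread between libraries, which may be technical.

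Libraries held 1.49 to 96.8 M (mega) reads in peaks, with a median of 54.8 M. The study left out 3 HP1α libraries with Treg for low quality, so that this comparison rested on 2 WT and 1 KO libraries, and it is given also with all 6. The naive marker list (4 of 4 genes with a promoter peak) had a mean of 18.5 to 24.5 CPM (counts per M reads in peaks, TMM scaled) per kb in naive libraries and 9.94 to 12.9 in Tconv. The activated list (5 of 5 genes) had 4.38 to 5.17 and 8.82 to 14.3. The B cell list, of which 1 of 5 genes had a promoter peak, reached 15.6 with Treg and 3.34 in naive libraries. The NK cell list (1 of 3 genes) reached 14.2 and 5.70. The CD8 list (1 of 2 genes) had 19.8 to 24.1 in naive libraries, 1.79 to 5.82 in Tconv and 2.51 to 7.06 with Treg. The Treg list (4 of 4 genes) had 12.4 to 15.9 in naive libraries, 8.94 to 15.6 in Tconv and 8.67 to 17.6 with Treg. The myeloid list (3 of 5 genes) had 4.998 to 11.6 and the red cell list (2 of 3 genes) 7.10 to 20.6 over all libraries, the latter highest in naive ones. The part of other cells in the results was not tested. The T cell list (6 of 6 genes) ranged from 7.32 to 31.0. ATAC-seq cannot show a protein loss, and the promoters of Cbx3 in the HP1γ line and Cbx5 in the HP1α line passed no test.

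A set of 6 promoters are shown here for the results that turn on them, from 250 bases before to 50 after a TSS, in GRCm39 from 5′ to 3′ along the gene. Zfp975 and Zfp976 are neighbours on chr7 that were more open without HP1γ. Zfp945 has the nearest coding TSS to peaks of the same kind on chr17. Zfp937 was less open in naive HP1γ KO cells. Zfp947 and Zfp995 are near copies, chosen after their values were seen. Capitals mark hexamers searched on both strands.
Zfp975 (chr7:42342177-42342476, strand minus): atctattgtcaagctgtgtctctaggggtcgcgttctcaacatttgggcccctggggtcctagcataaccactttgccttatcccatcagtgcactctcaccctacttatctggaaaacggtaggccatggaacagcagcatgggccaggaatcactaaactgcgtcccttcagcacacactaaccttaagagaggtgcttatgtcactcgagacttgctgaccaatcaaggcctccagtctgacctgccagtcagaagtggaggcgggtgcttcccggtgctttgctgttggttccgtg
Zfp976 (chr7:42291922-42292221, strand minus): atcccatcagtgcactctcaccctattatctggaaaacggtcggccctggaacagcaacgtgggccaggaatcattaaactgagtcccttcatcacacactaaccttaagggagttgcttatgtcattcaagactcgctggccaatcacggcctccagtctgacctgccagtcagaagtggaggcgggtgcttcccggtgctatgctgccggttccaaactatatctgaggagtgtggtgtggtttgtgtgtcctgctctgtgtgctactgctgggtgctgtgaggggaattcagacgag
Zfp945 (chr17:23086229-23086528, strand minus): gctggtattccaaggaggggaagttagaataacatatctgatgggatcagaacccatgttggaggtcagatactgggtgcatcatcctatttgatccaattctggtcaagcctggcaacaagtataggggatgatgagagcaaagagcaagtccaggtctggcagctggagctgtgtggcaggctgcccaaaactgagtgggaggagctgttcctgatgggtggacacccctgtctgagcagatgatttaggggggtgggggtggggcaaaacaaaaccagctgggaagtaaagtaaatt
Zfp937 (chr2:150059743-150060042, strand plus): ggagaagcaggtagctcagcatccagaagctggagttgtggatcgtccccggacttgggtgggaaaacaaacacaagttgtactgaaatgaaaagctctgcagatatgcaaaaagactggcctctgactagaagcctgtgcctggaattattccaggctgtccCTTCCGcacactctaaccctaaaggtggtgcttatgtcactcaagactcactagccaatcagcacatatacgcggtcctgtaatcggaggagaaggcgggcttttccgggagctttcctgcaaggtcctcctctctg
Zfp947 (chr17:22385125-22385424, strand minus): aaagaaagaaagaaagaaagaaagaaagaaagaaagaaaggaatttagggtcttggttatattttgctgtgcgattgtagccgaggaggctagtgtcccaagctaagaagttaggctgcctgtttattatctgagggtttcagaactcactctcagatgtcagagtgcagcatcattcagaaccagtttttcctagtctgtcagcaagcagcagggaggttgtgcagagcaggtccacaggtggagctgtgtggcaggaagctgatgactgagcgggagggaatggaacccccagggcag
Zfp995 (chr17:22128866-22129165, strand minus): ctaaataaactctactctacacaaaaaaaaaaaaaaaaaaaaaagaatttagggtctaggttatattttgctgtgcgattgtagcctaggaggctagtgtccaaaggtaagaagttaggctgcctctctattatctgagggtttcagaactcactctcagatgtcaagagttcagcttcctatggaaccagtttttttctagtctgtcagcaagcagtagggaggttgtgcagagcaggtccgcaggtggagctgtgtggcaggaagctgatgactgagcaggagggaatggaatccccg

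The only hexamer found in these windows was CGGAAG, the core bound by ETS factors, once in Zfp937. Over all member promoters it was found in 10 of 38 windows (26.3%), against 19.4% of 67388 windows of protein-coding genes. GGGCGG, bound by SP and KLF factors, was found in 7 of 38 (18.4%), against 41.0%. ATGGCG, the core bound by YY1, was found in 3 of 38 (7.89%), against 9.51%. Median GC content was 51.0% in member windows and 55.0% in all. The promoter peaks themselves had a median GC of 47.4% and a CpG ratio, observed over expected, of 0.38, against 53.4% and 0.58 at all coding promoters and 51.9% and 0.55 at the other Zfp promoters.

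Promoter windows were unlike each other as a rule, with a median identity of 50.7% over 703 pairs, but 2 pairs exceeded 80%. Zfp947 and Zfp995 shared 87.3% of bases, and Zfp934 and Zfp935 shared 82.0%. Zfp975 and Zfp976 shared 67.0%. Near copies can lose or exchange reads in mapping, so each peak was also searched for 100-base words that recur near member genes of its chromosome. There were none in 88 of the 144 peaks, among them both chr7 promoters, and 2 peaks had recurring words over most of their length.

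Promoters entered here through a called peak, which 28 of 66 genes lacked. Levels in WT naive cells are CPM per kb, which is counts per M reads in peaks, scaled by TMM and divided by peak width, as the mean ± SD of 6 libraries. Zfp983 had 37.8 ± 5.97, Zfp963 had 37.0 ± 2.60 and Zfp961 had 37.0 ± 0.844, which differed by less than their spread. At the other end Zfp976 had 2.63 ± 0.464, Zfp931 had 2.06 ± 0.313 and Zfp941 had 1.20 ± 0.319. The median was 16.8 over the 38 member promoters, 21.2 over 291 other Zfp promoters and 18.6 over 13419 coding promoters. Gene-body and flanking peaks had medians of 3.32 and 2.93.

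**Figure D1:**
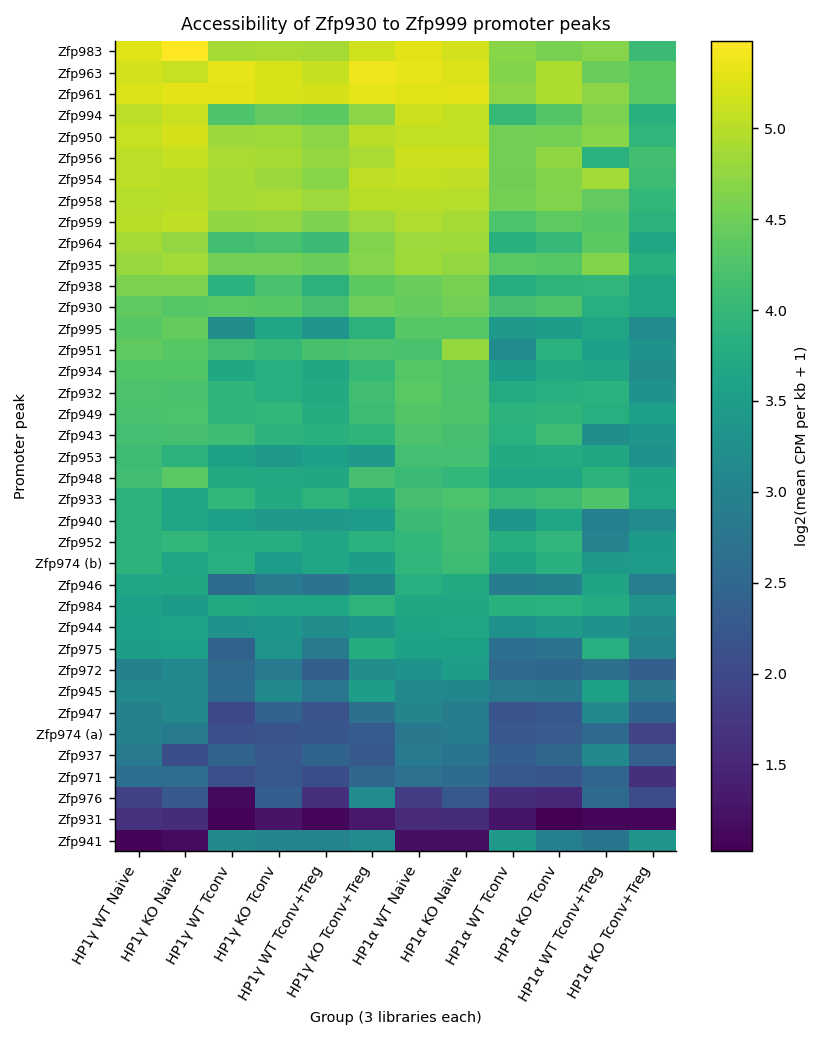
Mean accessibility of the 38 member promoter peaks (rows, ordered by their level in WT naive cells) in the 12 groups (columns), as log2 of CPM per kb plus 1, with brighter colours for higher levels. Zfp941, the lowest in naive cells, was higher in the groups of transferred cells, and Zfp974 has 2 rows for its 2 promoter peaks.

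Loss of HP1γ was compared first without Treg. In Tconv, 5 member peaks were higher in KO and 0 lower, that is 5 of 144, where 1.69% of all peaks were higher and 1.66% lower. A peak was called at a Benjamini-Hochberg adjusted p under 0.05 and a log2 fold change over 1 in size (edgeR quasi-likelihood test, 71508 peaks). An unadjusted p under 0.05, in either direction, was found for 20 members and 19.6% of all peaks, and DESeq2 called 5 members and 3.44% of all peaks. At an adjusted p under 0.05 and any fold, 7 were higher, where 2.49% of all peaks were. The called peaks were the promoters of Zfp975 and Zfp976, an intron of Zfp938, a peak upstream of Zfp935 and a peak downstream of Zfp945.

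The promoter of Zfp976 (chr7:42291501-42292480) had 0.865, 1.31 and 1.28 CPM in WT and 4.70, 3.85 and 3.47 in KO Tconv. The KO libraries all lay above the WT libraries, with a log2 fold change of 1.82 ± 0.253 (SE, adjusted p = 0.000413). That of Zfp975 (chr7:42341531-42343020), its neighbour, had 7.03, 5.84 and 6.51 CPM in WT and 14.8, 13.1 and 12.5 in KO. Here the difference was 1.06 ± 0.159 (adjusted p = 0.000836). In naive cells the means at Zfp975 were 15.5 ± 1.78 CPM in WT and 15.9 ± 1.20 in KO (SD, n = 3), which overlapped. Between naive cells and Tconv both fell in WT of this line, by 1.20 at Zfp975 and by 1.17 at Zfp976 on the log2 scale (adjusted p = 7.18e-07 and 0.000505). The WT Tconv libraries are shared by these comparisons.

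Downstream of Zfp945, past its 3′ end and 49448 bp from its nearest TSS, the peak at chr17:23036201-23037050 had 1.90, 1.75 and 1.78 CPM in WT Tconv and 5.34, 4.76 and 5.45 in KO. The groups were far apart beside a spread of at most 0.373 (SD, n = 3), and the log2 fold change was 1.54 ± 0.188 (adjusted p = 0.000124). It lies within 500 bp of a TSS of Gm56890, which is not protein-coding. The Zfp945 promoter itself rose by less, from a mean of 13.2 to 20.9 CPM, with a log2 fold change of 0.68 (adjusted p = 0.0391).

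A larger difference was found at a peak 5988 bp upstream of Zfp935 (chr13:62620161-62621130), which spans the annotated 3′ end of its neighbour Zfp934 (chr13:62620860-62719013, minus strand). WT Tconv had 0.723, 0.639 and 1.22 CPM, and KO had 9.56, 7.14 and 9.35. The log2 fold change was 3.40 ± 0.253 (adjusted p = 1.75e-07), while the Zfp935 promoter had a mean of 39.4 CPM in WT and 39.6 in KO. In this peak, 26.2% of 100-base words recur near other member genes of chr13. An intron of Zfp938 (chr10:82038331-82039460) had 1.46, 0.858 and 0.941 CPM in WT and 9.08, 4.09 and 3.75 in KO, with a log2 fold change of 2.35 ± 0.357 (adjusted p = 0.000916). Here 1 KO library lay far above the other 2, yet all 3 exceeded WT.

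With Treg, 7 member peaks were higher in HP1γ KO and 2 lower, where 6.48% and 5.38% of all peaks were. At any fold there were 19 higher and 3 lower members, where 11.6% and 8.92% of all peaks were. Of the 5 peaks called without Treg, 4 were called here too, the exception being Zfp938. Zfp976 had 2.28, 1.57 and 2.38 CPM in WT and 9.14, 6.69 and 7.96 in KO, a log2 fold change of 1.97 ± 0.213 (adjusted p = 2.62e-05). Zfp975 had 10.3, 7.42 and 10.4 CPM in WT and 20.4, 19.0 and 17.9 in KO, a log2 fold change of 1.06 ± 0.153 (adjusted p = 0.000233). In both, all KO libraries exceeded all WT libraries.

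The peak downstream of Zfp945 had 3.50, 2.07 and 2.48 CPM in WT and 8.44, 7.69 and 7.80 in KO, a log2 fold change of 1.54 ± 0.174 (adjusted p = 3.19e-05). A second peak on that side, 71723 bp from the TSS (chr17:23014201-23014500), rose from 0.202, 0.398 and 0.524 to 2.16, 1.74 and 2.32 CPM, by 2.61 ± 0.365 on the log2 scale (adjusted p = 7.05e-05). The Zfp945 promoter had a log2 fold change of 0.82 (adjusted p = 0.00545), so that these 3 peaks of Zfp945 passed the test. The peak upstream of Zfp935 had 0.788, 0.896 and 2.19 CPM in WT and 4.17, 5.79 and 7.37 in KO, a log2 fold change of 2.36 ± 0.297 (adjusted p = 5.92e-05).

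**Figure D2:**
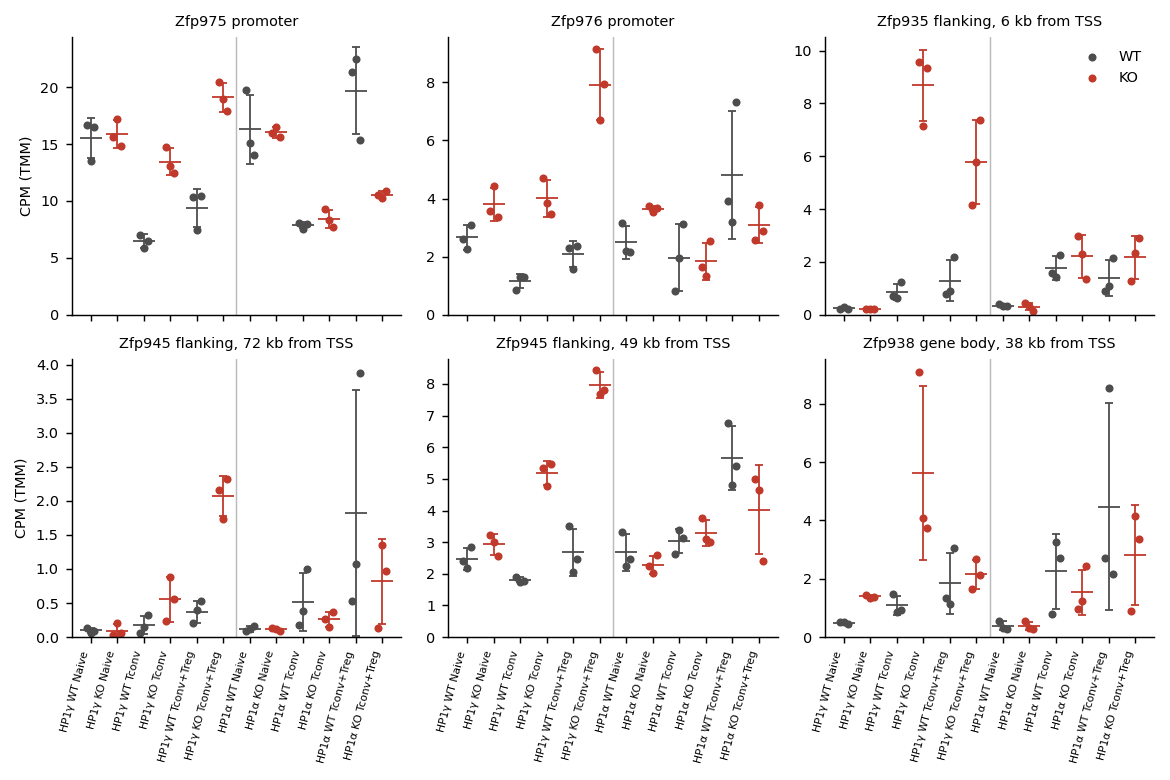
CPM (TMM scaled) of 6 member peaks in each library, by group, with WT in grey and KO in red, short bars for the mean and error bars for the SD of 3 libraries. At Zfp976, Zfp975, Zfp935 and both Zfp945 peaks the HP1γ KO libraries with Treg (left of the line) lie above their WT, and the HP1α groups (right of the line) include libraries the study left out.

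The 2 other higher peaks had larger adjusted p. In an intron of Zfp950 (chr19:61098271-61098830), WT had 0.546, 0.697 and 1.05 CPM and KO 1.21, 3.07 and 2.50 (log2 fold change 1.68 ± 0.514, adjusted p = 0.0276). A peak 81940 bp from the TSS of Zfp957 (chr14:79379191-79379560) had 0.485, 0.573 and 0.428 CPM in WT and 1.75, 0.509 and 1.68 in KO, so that the groups overlapped (log2 fold change 1.34 ± 0.425, adjusted p = 0.0295). Of promoters, 9 of 38 were higher at an adjusted p under 0.05 and any fold, and 0 were lower, where 11.8% and 2.58% of all coding promoters and 7.56% and 1.03% of other Zfp promoters were. Beside Zfp975, Zfp976 and Zfp945 these were Zfp947 (0.64), Zfp959 (0.22), Zfp964 (0.59), Zfp972 (0.98), Zfp994 (0.40) and Zfp995 (0.59 on the log2 scale). Zfp947 and Zfp995, the near copies shown above, had means of 3.50 and 14.0 CPM in WT and of 5.44 and 21.1 in KO. In the naive to Tconv comparison of the same line both had fallen, by 1.13 and 1.11 on the log2 scale. The median log2 fold change with Treg was 0.30 over the member promoters, of which 34 of 38 were above 0, against 0.14 over other Zfp promoters and 0.13 over all coding promoters. Among promoters with lower values, the smallest p with Treg were those of Zfp933 (-0.17) and Zfp974 (-0.21), and without Treg those of Zfp933 (-0.24) and Zfp943 (-0.19), which did not pass.

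**Figure D3:**
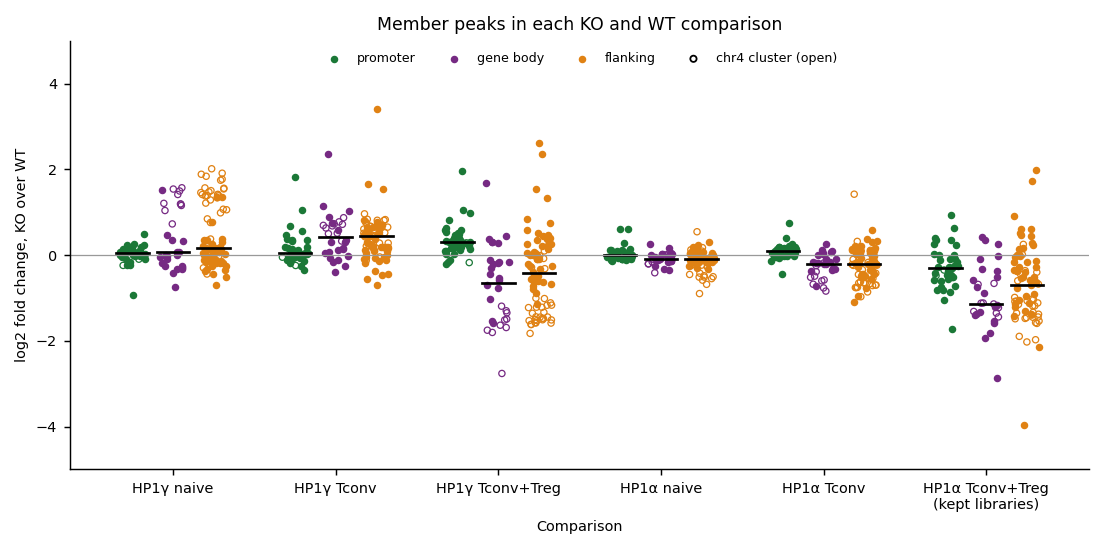
Log2 fold change of each member peak, KO over WT, in 6 comparisons, coloured by class, with black bars for the median of a class and open circles for the 44 peaks of the chr4 cluster. Promoters with HP1γ loss and Treg have a median of 0.30. The open circles of the HP1γ line have medians of 1.36 in naive cells and -1.44 with Treg, where KO and WT differ in depth.

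The 2 peaks lower with Treg both lay in a cluster of 16 member genes on chr4 (145237287 to 147932882), an outline chosen after the values were seen. The cluster held 44 member peaks, 2 of them promoters. An intron peak of Zfp978 (chr4:147474501-147474720) had 0.465, 1.59 and 2.24 CPM in WT and 0.0511, 0.176 and 0.373 in KO (log2 fold change -2.76 ± 0.663, adjusted p = 0.00656). That of Zfp981 (chr4:146577771-146580280) had 5.26, 10.2 and 20.4 CPM in WT and 1.36, 2.70 and 6.01 in KO, so that the groups overlapped (-1.75 ± 0.572, adjusted p = 0.0371). Same-numbered libraries deviated together in this comparison. With the replicate number as a block, 8 members were higher and 30 lower, where 7.26% and 7.0% of all peaks were, and all 30 lay in the chr4 cluster. Without WT replicate 1, 22 members were lower, where 7.18% of all peaks were, without KO replicate 3, 12, where 5.47% were, and without WT replicate 2, 0, where 1.86% were, while 7, 6 and 5 were higher, where 5.8%, 6.28% and 3.35% were. Without KO replicate 1, KO replicate 2 or WT replicate 3, 1 was lower, where 1.83%, 6.79% and 4.44% were.

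The level of the cluster went with sequencing depth. Summed over the 44 peaks of the chr4 cluster, CPM was 391 to 753 in the 9 libraries under 25 M reads in peaks, 191 to 333 in the 5 with 25 to 50 M, and 99.0 to 202 in the 22 over 50 M. The 100 other member peaks were lower at low depth, with 879 to 1944 (median 1271), 1526 to 2133 (median 1829) and 1499 to 2393 (median 1882). The share of reads in promoter peaks was 50.2 to 60.6%, 59.1 to 61.4% and 60.01 to 62.98% in these libraries. Across the 36 libraries the 42 non-promoter peaks of the cluster had a median pairwise correlation of 0.96 on the log2 scale, against 0.057 for the 64 such peaks elsewhere. These are descriptions, and the points share libraries and depth. The median log2 fold change of the cluster was 1.36 in naive HP1γ cells, -1.44 with Treg, 2.07 from naive to Tconv in WT of the HP1α line and 1.28 in WT of the HP1γ line. In naive cells the HP1γ KO libraries held 33.9, 32.4 and 82.4 M reads in peaks and the WT libraries 70.5, 80.1 and 90.3 M. With Treg the KO libraries held 64.2, 60.5 and 39.6 M and the WT libraries 51.7, 41.4 and 19.4 M. With log2 depth as a covariate, an alternative chosen after seeing the data, 7 members were called higher and 2 lower for HP1γ with Treg, where 6.92% and 4.76% of all peaks were. Of the 2 lower peaks of the cluster, that of Zfp978 was still called (adjusted p = 0.0201) and that of Zfp981 was not (adjusted p = 0.0656), while the peak 8207 bp upstream of Zfp949 became the other lower call (adjusted p = 0.0478). The part of depth in the result was not otherwise tested, and that of the promoter share was not tested.

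**Figure D4:**
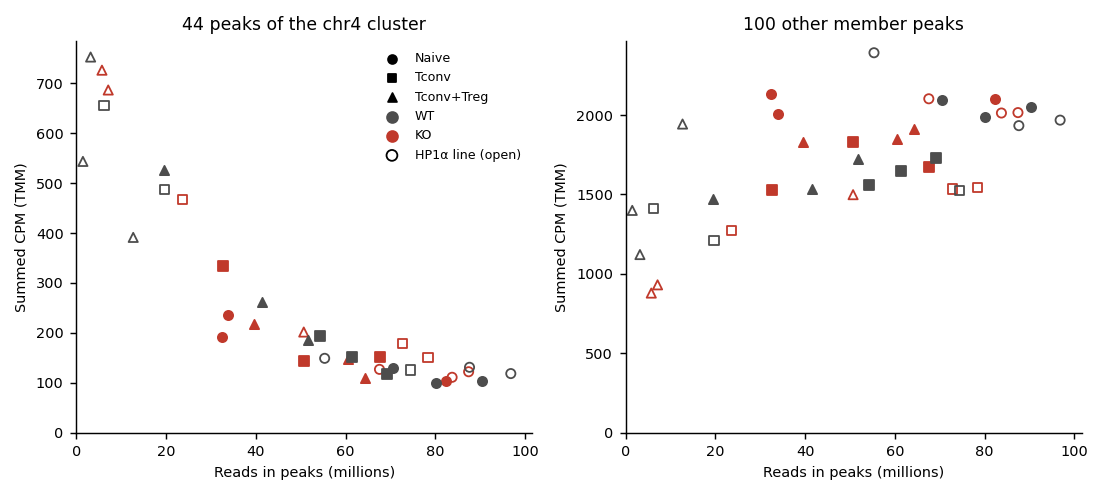
Summed CPM of the chr4 cluster (left) and of the 100 other member peaks (right) against reads in peaks, 1 point per library, with shape for condition, colour for genotype and open points for the HP1α line. In the cluster the 9 libraries under 25 M reads lie between 391 and 753, all above the 22 libraries over 50 M.

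In naive HP1γ cells 0 of 144 members were called, where 0.14% of all peaks were, with 22 members and 8.98% of all peaks at an unadjusted p under 0.05, and DESeq2 called 2 members and 3.27% of all peaks. At any fold the promoter of Zfp937 (chr2:150059441-150060750) was lower, where 0.0266% of all peaks were. It had 8.82, 7.37 and 8.11 CPM in WT and 4.05, 4.68 and 4.01 in KO, all KO libraries being lower, with a log2 fold change of -0.93 ± 0.184 (adjusted p = 0.0398). In Tconv the means were 5.79 ± 0.790 CPM in WT and 4.88 ± 1.14 in KO, which overlapped. The intron of Zfp938 had 0.510, 0.502 and 0.464 CPM in WT and 1.46, 1.34 and 1.39 in KO, without passing the adjusted test (log2 fold change 1.53 ± 0.568, adjusted p = 0.400). Among the other promoters of smallest p, Zfp983 had a log2 fold change of 0.25, Zfp976 of 0.48 and Zfp933 of -0.24.

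Loss of HP1α called few member peaks. In naive cells 0 were called, where 0.00559% of all peaks were, with 3 members and 1.17% of all peaks at an unadjusted p under 0.05. In Tconv 0 were called, where 0.021% were, with 7 members and 4.82% at an unadjusted p under 0.05. DESeq2 called 0 members in each, and 0.00979% and 0.0168% of all peaks. The promoter of Zfp951 (chr5:105006971-105008600) had the smallest p in both. In Tconv it had 13.6, 12.6 and 13.5 CPM in WT and 21.3, 26.5 and 18.9 in KO (log2 fold change 0.76, adjusted p = 0.326), and in naive cells the log2 fold change was 0.60, which did not pass the adjusted test either. The other promoters of smallest p in each direction were Zfp976 (0.60), Zfp946 (-0.10) and Zfp947 (-0.15) in naive cells. In Tconv they were Zfp994 (0.22), Zfp941 (-0.45) and Zfp931 (-0.13). Their unadjusted p ran from 0.0158 (Zfp976) to 0.713 (Zfp931), and none passed the adjusted test. In HP1γ Tconv the means of Zfp951 were 26.6 ± 1.74 CPM in WT and 24.3 ± 3.96 in KO.

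With Treg, 0 members were higher and 1 lower in HP1α KO, where 0.218% of all peaks were higher and 1.42% lower, with 21 members and 16.3% of all peaks at an unadjusted p under 0.05. It was the distal Zfp957 peak (chr14:79379191-79379560), with 3.68 and 2.67 CPM in the 2 WT libraries kept and 0.226 in the KO library kept. The log2 fold change was -3.96 ± 0.765 (adjusted p = 0.00811). With 1 KO library this group was assumed to vary like the others of the fit, and 1 of the 2 WT libraries held 1.49 M reads, with no read in 8853 peaks. The call was lost with log2 depth as a covariate (adjusted p = 0.305), with only the groups compared (0.245), with the edgeR 3 form (0.124) and without WT replicate 1 (0.973). With all libraries WT had 3.68, 2.67 and 1.08 and KO 0.226, 1.45 and 0.482, which overlapped, and the log2 fold change was -2.72 (adjusted p = 0.0471), where 0.741% of all peaks were called. That call was lost under the same settings, with GC offsets, and when KO replicate 1 or 3 or WT replicate 2 was left out. Member promoters had a median log2 fold change of -0.30 with the kept libraries and -0.42 with all, against 0.06 and -0.01 over all coding promoters, and of -0.52 with the kept libraries under loess offsets on abundance. The smallest p among them was that of Zfp975, with 21.3 and 22.5 CPM in WT and 10.5 in KO (log2 fold change -1.04, adjusted p = 0.0722), followed by Zfp945 (-0.85, adjusted p = 0.0990). Among higher values these were Zfp952 (0.93, adjusted p = 0.221) and Zfp974 (0.64, adjusted p = 0.408).

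The effects of the proteins were set against each other in one fit of 33 libraries. In Tconv the HP1γ effect exceeded the HP1α effect at 2 members, where 1.04% of all peaks differed. These were the peaks upstream of Zfp935, by 2.78 ± 0.426 on the log2 scale (adjusted p = 0.00129), and downstream of Zfp945, by 1.29 ± 0.284 (adjusted p = 0.0198). With only the groups compared in the fit neither passed (adjusted p = 0.0730 and 0.166). With 1 library left out in turn, Zfp935 passed each time, and Zfp945 did not without replicate 2 of HP1α KO, replicate 2 of HP1α WT, replicate 3 of HP1γ KO or replicate 1 or 2 of HP1γ WT (adjusted p up to 0.0767). In HP1α Tconv the Zfp935 peak had means of 1.76 ± 0.454 CPM in WT and 2.21 ± 0.809 in KO, and the Zfp945 peak 3.05 ± 0.379 and 3.30 ± 0.419. At Zfp975 the difference was 0.94 (adjusted p = 0.0496), under the limit of size. In naive cells 0 members differed, where 0.0308% of all peaks did, with 10 members and 4.91% of all peaks at an unadjusted p under 0.05, and DESeq2 called 0 members and 0.491% of all peaks.

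From naive cells to Tconv in WT, 44 members rose and 21 fell in the HP1α line, where 24.9% and 17.5% of all peaks did. In the HP1γ line 13 rose and 27 fell, where 24.5% and 22.0% did. The lines had 12 rises in common, 12 of 44 and 12 of 13, and 19 falls, 19 of 21 and 19 of 27. Over all peaks, 86.2% and 87.8% of the rises and 93.3% and 74.5% of the falls were shared. Of the 44 rises, 30 lay in the chr4 cluster, where 2 of the 3 Tconv libraries held under 25 M reads. Without WT Tconv replicate 2 of the HP1α line, 14 members rose and 23 fell, where 22.1% and 18.8% of all peaks did, with 0 rises in the cluster. Outside the cluster, 14 rose and 20 fell in one line and 13 and 24 in the other.

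Most falls were at Zfp957, a gene of chr14 with 19 peaks and none at its promoter. Of these, 14 fell in the HP1α line and 15 in the HP1γ line, and 1 rose in each. Its peaks lie in its introns and on both sides of it. The intron peak at chr14:79479991-79481800 had 27.9, 30.6 and 31.1 CPM in naive WT cells of the HP1α line and 7.63, 6.12 and 8.53 in Tconv (log2 fold change -1.99 ± 0.148, adjusted p = 5.20e-09). A second one at chr14:79476331-79477950 fell by 2.88 in that line and by 3.84 in the other. In the HP1γ line the peak at chr14:79473221-79474740 had 26.2, 26.8 and 28.3 CPM before and 4.26, 2.97 and 4.08 after (-2.78 ± 0.154, adjusted p = 2.27e-11), and the one 8599 bp from the TSS (chr14:79492961-79493850) fell by 3.65 (adjusted p = 3.02e-11). KO cells had like values, with means of 25.3 ± 2.13 and 3.78 ± 0.557 CPM at the former peak in HP1γ KO. The peak that rose was the distal one of the HP1 comparisons above, by 3.17 and 2.52 on the log2 scale.

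Peaks upstream of Zfp949 on chr9 opened. At 17657 bp from the TSS (chr9:88412151-88412680), naive WT cells of the HP1γ line had 0.185, 0.109 and 0.0855 CPM and Tconv 4.78, 5.67 and 4.52, with a log2 fold change of 5.38 ± 0.340 (adjusted p = 2.48e-11). In the HP1α line it was 4.47 ± 0.382 (adjusted p = 8.99e-09). At 8207 bp (chr9:88421571-88422160) it was 5.18 and 3.71. The Zfp949 promoter was not called in either line.

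**Figure D5:**
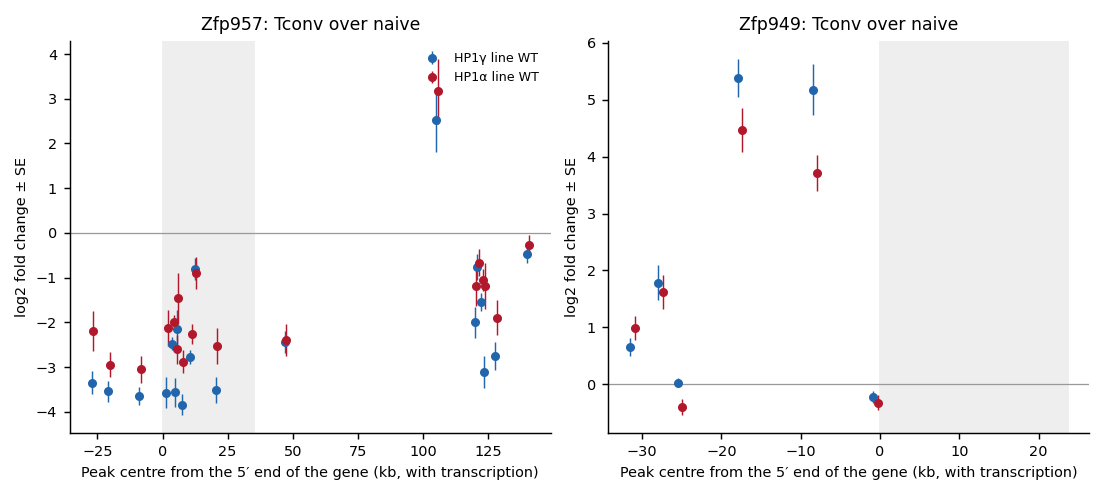
Log2 fold change with its SE, Tconv over naive WT cells, of each peak of Zfp957 and Zfp949, against its distance from the 5′ end of the gene in kb, with the gene body shaded and 1 colour per line. At Zfp957 the peaks lie below 0 except 1 distal peak, and at Zfp949 the peaks 17657 and 8207 bp upstream lie highest, at up to 5.38.

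Among promoters, that of Zfp941, the least open in naive cells, rose by 2.99 ± 0.290 in the HP1α line (adjusted p = 1.08e-07) and by 2.94 ± 0.340 in the HP1γ line (adjusted p = 3.41e-07). Its libraries went from 0.651 to 1.09 CPM in naive cells of the HP1α line to 5.29 to 6.97 in Tconv. It was the 1 of 38 promoters called higher in each line, where 8.6% and 9.32% of all coding promoters were. At any fold, 26 of 38 promoters were lower in the HP1α line and 18 in the HP1γ line, where 30.3% and 32.1% of all peaks, 39.3% and 19.9% of all coding promoters and 52.2% and 29.2% of other Zfp promoters were. Their summed CPM went from 1268 ± 117 to 852 ± 114 and from 1228 ± 32.5 to 1001 ± 43.1 (SD, n = 3). The median log2 fold change was -0.53 and -0.29, against -0.38 and -0.07 over other Zfp promoters and -0.27 and 0.08 over all coding promoters. With loess offsets on abundance the member medians were -0.26 and -0.31, where those of all peaks were 0.03 and 0.09. The lines moved in opposite directions at Zfp950. Its intron peak rose from 0.218, 0.303 and 0.328 to 0.606, 1.26 and 0.569 CPM in the HP1α line and fell from 2.19, 1.97 and 2.20 to 0.377, 0.456 and 0.641 in the HP1γ line, with log2 fold changes of 1.40 and -2.07.

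Addition of Treg to WT cells of the HP1γ line called 0 members, where 0.137% of all peaks were called, with 42 members and 20.3% of all peaks at an unadjusted p under 0.05, and DESeq2 called 2 members and 3.26% of all peaks. The peaks of smallest p were those of Zfp978 (log2 fold change 1.76, adjusted p = 0.123) and Zfp981 (1.85, adjusted p = 0.128) in the chr4 cluster, the 8207 bp peak of Zfp949 (-1.18, adjusted p = 0.0834) and the Zfp943 promoter (-0.27, adjusted p = 0.187). With the replicate number as a block, 2 were higher and 1 lower, where 0.954% and 0.657% of all peaks were. In HP1γ KO cells 2 were higher and 2 lower, where 6.1% and 2.06% were. Higher were the Zfp945 peak at 71723 bp, by 1.95 ± 0.301 (adjusted p = 0.000227), and the distal peak of Zfp957, by 1.16, in overlapping groups. The Zfp976 promoter rose from 4.70, 3.85 and 3.47 to 9.14, 6.69 and 7.96 CPM, with a log2 fold change of 0.99 ± 0.171 (adjusted p = 0.00113), under the limit of size. Lower were the 8207 bp peak of Zfp949, with a log2 fold change of -1.86 ± 0.360 (adjusted p = 0.00216), and the intron of Zfp938, of -1.40 ± 0.316 (adjusted p = 0.00663). The genotype by Treg interaction called 0 members, where 0.0014% of all peaks were called, with 35 members and 12.8% of all peaks at an unadjusted p under 0.05, and DESeq2 called 3 members and 1.12% of all peaks. With the replicate number as a block 0 members were higher and 17 lower, where 1.71% of all peaks were lower, and 14 of the 17 lay in the chr4 cluster. With the block and GC offsets 19 were lower, 16 of them there, where 1.33% of all peaks were lower.

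In WT cells of the HP1α line 5 members were higher with Treg and 0 lower, where 4.92% and 1.84% of all peaks were. They were the promoter of Zfp975 (log2 fold change 1.45 ± 0.261, adjusted p = 0.00260) and peaks of Zfp957 (2.71 and 1.62), Zfp958 (1.38) and Zfp950 (1.62). Zfp975 had 8.08, 7.55 and 7.96 CPM without and 21.3 and 22.5 with Treg. The latter values came from libraries of 12.7 and 1.49 M reads in peaks. That of 1.49 M had no read in 8853 peaks. The 2 libraries with Treg held under 25 M reads, and leaving 1 library out in turn gave 0 to 7 calls, where 0.0% to 8.11% of all peaks were called in either direction. Among lower values the smallest p were those of a flanking peak of Zfp961 (-1.84, adjusted p = 0.0799) and of the 8207 bp peak of Zfp949 (-1.52, adjusted p = 0.0983).

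Genes that act with KRAB zinc finger proteins or with HP1 were read from a list of 22, of which 21 had 25 promoter peaks. In HP1γ KO with Treg 1 of the 25 was called, where 6.48% of all peaks were higher and 5.38% lower. It was Zfp57, a KRAB zinc finger gene that keeps imprinted methylation, with a log2 fold change of -1.16 (adjusted p = 0.0450). At any fold 2 of 25 were higher, where 11.6% of all peaks were, so that neither share exceeded that over all peaks. They were 1 of 4 promoter peaks of Atf7ip, a partner of SETDB1 (0.48, adjusted p = 0.000691), the other 3 having -0.017 to 0.15, and 1 of 2 of Cbx5 (0.49, adjusted p = 0.0128), the other having 0.15 (adjusted p = 0.0565). In each of the 6 other comparisons of KO and WT 0 of 25 passed at any fold.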

How the data were processed

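Per the study's methods, the authors trimmed reads with Trim Galore 0.6.7, aligned them to GRCm39 with BWA, removed duplicates and reads of low mapping quality, called peaks in each sample, merged them and counted reads in them with featureCounts 2.0.3. The deposited table holds raw counts per peak with no normalization. With the counting options of the study a read can count in neighbouring peaks, and near copies can lose reads to its quality filter. All 36 columns matched a sample and 0 were unused. Of 71512 intervals, 3 had no width and were left out. The list of peak positions was not used.

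Peaks were assigned with GENCODE vM39. The members and lists were chosen with earlier results of these data known, as were the clusters (gaps up to 1000000 bp). Lines were fitted apart, HP1α with 15 libraries (18 in a second fit) and HP1γ with 18, and the difference between lines with 33. Peaks were filtered with filterByExpr, scaled by TMM and compared in edgeR 4.0.16 on R 4.3.3 (quasi-likelihood, two-sided), with Benjamini-Hochberg adjustment over all peaks, in 15 comparisons. The standard error is implied by the fold change and F.

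Peaks were named by rule as all members called between KO and WT, the 2 promoters of smallest p in each direction, the 3 most and least open promoters, and the 2 peaks of smallest p from naive to Tconv and for Treg. Those of Zfp947, Zfp995 and the other promoters past the adjusted test were named after their values were seen.

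The replicate number was used as a block as an alternative. The correlations of deviations of same-numbered libraries from their group means were all over 0.1 for HP1γ with Treg (0.28, 0.15 and 0.32). The same held for Treg in HP1γ WT (0.29, 0.20 and 0.23) and for HP1α naive cells. Libraries of unlike numbers were not compared, so that these values do not show a pairing. With Treg, depth fell with the replicate number in HP1γ WT (51.7, 41.4 and 19.4 M) and KO (64.2, 60.5 and 39.6 M). What a replicate number marks is not given in the sources used here. Other alternatives were size factors of DESeq2 1.42.0, its own test, loess offsets on abundance or GC content, no filter, only the groups compared, log2 depth as a covariate (HP1α with Treg) and leaving out each library. Added after seeing the data were log2 depth for HP1γ and the edgeR 3 form of the test. Sequences came from GRCm39. RNA-seq was not used here.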

Additional observations from a re-analysis of the deposited data

Results flagged for a closer look

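The effect of HP1γ loss in Tconv exceeded that of HP1α loss, by a test of the difference itself, at the peak upstream of Zfp935 (2.78 on the log2 scale) and at the peak downstream of Zfp945 (1.29). With only the groups compared in the fit neither passed, and Zfp945 did not pass when any 1 of 5 libraries was left out.

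At the Zfp975 promoter with Treg, all HP1γ KO libraries lay above their WT (log2 fold change 1.06). The HP1α KO library kept lay below both of its WT libraries (-1.04), which did not pass the adjusted test. Of these 2 WT libraries, 1 held 1.49 M reads. With all HP1α libraries the log2 fold change was -0.88 (adjusted p = 0.128). The difference between the HP1γ and HP1α effects was not tested.

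At the intron peak of Zfp950, all Tconv libraries lay below the naive libraries in WT of the HP1γ line (log2 fold change -2.07) and above them in WT of the HP1α line (1.40). This difference was not tested either, and the lines are different mice.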

How the results depend on the processing

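In parentheses is the share of all peaks called in the same fit. The 5 calls for HP1γ in Tconv stayed at 5 or 6 under every setting run, and at 4 to 6 with 1 library left out (1.34 to 5.3%). For HP1γ with Treg, the 9 calls (11.9%) became 16 with DESeq2 (12.3%), 38 with the replicate block (14.3%), 32 with the replicate block and GC offsets (14.2%), 6 with only the groups compared (5.15%), and 5 to 29 with 1 library left out (5.2 to 16.2%). In naive HP1γ cells 0 (0.14%) became 2 with DESeq2 (3.27%) and 17 with only the groups compared in the fit (1.59%), 16 of them in the chr4 cluster. For HP1α with Treg, the 1 call (1.63%) became 5 with DESeq2 (3.57%), 6 with loess offsets on abundance (2.01%), and 0 with log2 depth, with only the groups compared and with the edgeR 3 form (0.0573, 0.0 and 0.14%), and 0 to 1 with 1 library left out (0.0 to 0.729%). With all libraries it (0.741%) became 3 with DESeq2 (1.1%), 4 with loess offsets on abundance (1.45%), and 0 with GC offsets, log2 depth, only the groups compared and the edgeR 3 form (0.989, 0.524, 0.0 and 0.0014%), and 0 to 1 with 1 left out (0.0 to 1.07%). The 2 differences between the lines in Tconv (1.04%) became 4 with DESeq2 (1.11%) and with loess offsets on abundance (1.7%), 0 with only the groups compared (0.021%), and 1 to 5 with 1 library left out (0.271 to 2.38%). The interaction went from 0 (0.0014%) to 3 with DESeq2 (1.12%), 17 with the replicate block (2.51%) and 19 with the block and GC offsets (3.58%). For Treg in HP1γ WT, 0 (0.137%) became 2 with DESeq2 (3.26%), 1 with loess offsets on abundance (0.975%) or GC content (0.338%), 3 with the replicate block alone (1.61%) or with GC offsets (1.9%), and 0 to 1 with 1 left out (0.0014 to 1.21%). In HP1γ KO, 4 (8.15%) became 1 with only the groups compared (0.856%), 7 with the block and GC offsets (9.08%), and 3 to 5 with 1 left out (2.98 to 13.1%). In HP1α WT, 5 (6.77%) became 10 with DESeq2 (9.51%), 9 with the edgeR 3 form (7.5%), 14 with loess offsets on abundance (6.84%), 8 with the replicate block (9.21%), and 0 to 7 with 1 left out (0.0 to 8.11%). From naive to Tconv, 65 calls in the HP1α line (42.5%) became 37 to 67 with 1 left out (37.1 to 42.0%), and 40 in the HP1γ line (46.5%) became 64 with only the groups compared (47.5%) and 38 to 52 with 1 left out (44.7 to 47.2%). The cause was not tested.

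For named peaks, 566 of 612 values kept their direction and side of the threshold, 36 no longer passed, 4 passed only then and 6 changed sign, none of which had been called. These were Zfp947 in HP1α naive cells (-0.27 to 0.046 with 1 library left out), Zfp931 in HP1α Tconv (0.012 with loess offsets on abundance, -0.50 to 0.050 with 1 left out), and, with all HP1α libraries with Treg, Zfp952 (-0.046 to 0.90) and Zfp974 (-0.041 with log2 depth, -0.16 to 0.53 with 1 left out). The median of the member promoters for HP1γ with Treg was 0.24 to 0.44 under the 4 scalings, and that for HP1γ in Tconv was -0.01 with GC offsets against 0.04. From naive to Tconv in the HP1α line it was -0.62 to -0.26, and for HP1α with Treg, kept libraries, -0.52 to -0.22.

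The 9 libraries under 25 M reads limit what can be read from weak peaks. With Treg in the HP1α line, 1 KO library was kept, of 50.7 M reads, beside 2 WT libraries of 12.7 and 1.49 M.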
